A study of Homo sapiens with 8 samples.

Results

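OR21 added to imatinib was read from 4 of the 8 arrays: the combination arrays of the leukaemia lines K562 and KBM5, set against the IM arrays of the same lines. Both are cell lines of chronic myeloid leukaemia grown in culture, and each group held 1 array of each line, paired by line. The combination cells had received OR21 at 100 nM for 3 days and then imatinib (IM) at 1000 nM, with RNA taken 24 hours after IM was given. The IM cells had received IM at 1000 nM for 24 hours and no OR21. The label of the combination does not repeat its OR21 dose, which comes from the treatment protocol. The other 4 arrays, OR21 alone and control in each line, share no array with this comparison and served as the same contrast without IM. Each gene was represented by its brightest probe set, so 17687 genes were compared, and the values are linear intensities as the authors deposited them.

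Chronic myeloid leukaemia is driven by the fusion kinase BCR-ABL1, and imatinib blocks the kinase domain of its ABL1 portion. Cells whose kinase is blocked stop dividing, lose growth signalling through STAT5, ERK and MYC, and may take on features of the red cell or white cell lineage that their line can follow. OR21 is called a demethylating agent in the title of the series. Agents of that kind lower DNA methylation when cells replicate, and genes whose promoters were silenced by methylation can then be transcribed. The question of the comparison was which genes differ when imatinib acts on cells that have first been treated with OR21.

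Every line and treatment had 1 array, so a p-value reflects no more than how these 8 arrays vary, and so few arrays leave each value imprecise. A probe set was taken as above background when it exceeded the 95th percentile of the array's 612 negative control probe sets, which lay at 182 and 186 on the K562 combination and IM arrays and at 194 and 229 on the KBM5 combination and IM arrays. Genes above background numbered 6762 and 6662 on the K562 combination and IM arrays, and 6637 and 6091 on the KBM5 combination and IM arrays. The lines matched their names: 8 of 9 measured globin genes were above background on both K562 arrays and 0 on either KBM5 array, with HBA2 at 499975 in K562 combination cells and 524909 in K562 IM cells. Of 28 granulocytic and monocytic genes, 18 and 15 were above background on the KBM5 combination and IM arrays, against 3 and 2 on the K562 combination and IM arrays. Markers of other cells were present in part. Of 14 epithelial genes 5 were above background on both K562 arrays, and 1 and 2 on the KBM5 combination and IM arrays. Of 20 megakaryocytic genes 6 and 5 were above it on the K562 combination and IM arrays, and 5 and 4 on the KBM5 combination and IM arrays. Of 16 mast cell and basophil genes 2 were above it on the KBM5 combination array, and 0 on the KBM5 IM array and both K562 arrays. Of 14 fibroblast and endothelial genes 1 was above background on each of the 4 arrays, and of 16 lymphoid genes 4 were above it on both KBM5 arrays, among them PTPRC and CD4.

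Over both lines together, the genes that were higher with OR21 were led by metallothioneins, small proteins that bind zinc and copper. No gene passed limma at a Benjamini-Hochberg adjusted p under 0.05 when the 2 pairs were tested together (0 of 17687, 0%, in either direction, with 1341 genes at an unadjusted p under 0.05). The smallest adjusted p of 0.153 was shared by MT1L and MT1H. Without a test, 13 genes were at least 2-fold higher in the combination in both lines and 1 gene at least 2-fold lower, among 5775 genes above background in both pairs (0.225% and 0.0173%). The 13 genes were MT1L, MT1G, MT1B, MT1X, MT2A, MT1M, TKTL1, ALDOC, RAB13, EFEMP2, SLC39A8, BNIP3 and CDC20, and the 1 lower gene was SYTL2. Across those 5775 genes the differences of the lines were weakly related (Pearson r = 0.15, Spearman rho = 0.13, across genes, which are not independent replicates).

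**Figure D1:**
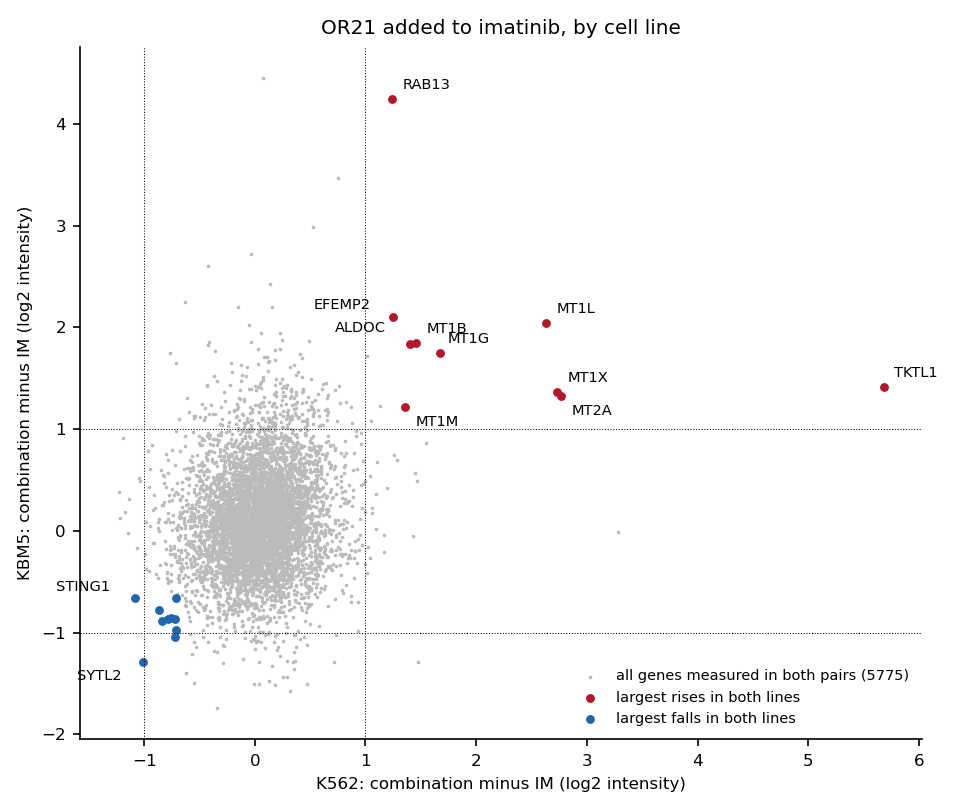
Each point is a gene, with its log2 intensity difference combination minus IM in K562 on the x axis and in KBM5 on the y axis. Grey points are the 5775 genes above background in both pairs, red points the 10 genes most strongly higher and blue points the 10 most strongly lower in both lines. Dotted lines mark a 2-fold difference. The metallothioneins lie in the upper right, TKTL1 far to the right and RAB13 far up.

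Metallothioneins hold zinc and copper ions through their cysteines and are induced by metals and by other stresses, and most of their genes lie side by side on chromosome 16. MT2A had 16840 in K562 combination cells and 35784 in KBM5 combination cells, against 2478 in K562 IM cells and 14302 in KBM5 IM cells, which was 6.8-fold and 2.5-fold higher. MT1X had 4225 in K562 and 14465 in KBM5 combination cells, against 635 in K562 and 5618 in KBM5 IM cells. MT1L, a member annotated as a pseudogene, had 2449 and 9830 in K562 and KBM5 combination cells, against 395 and 2384 in K562 and KBM5 IM cells, and its difference was 2.34 ± 0.28 on the log2 scale (SE, limma adjusted p = 0.153). For MT1L and for MT1X, MT2A, MT1G, MT1B and MT1M, the combination array was above the IM array in each line. KBM5 had the higher level of all 6 genes in every treatment.

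The list of metallothioneins held 10 measured genes. All 5 that were above background in the K562 pair were at least 2-fold higher in the K562 combination, where 1.05% of all genes were. Those 5 were already named above as higher in both lines, so this count is no separate check. All 8 above background in the KBM5 pair were at least 2-fold higher in the KBM5 combination, where 6.31% of all genes were. On the KBM5 combination array 8 were above background, and on the KBM5 IM array 7. The median difference of the list was 1.53 over both lines, with 1.41 in K562 and 1.34 in KBM5, against -0.02 over all genes. These medians include 5 genes at background in the K562 pair and 2 in the KBM5 pair. MT1E and MT1F were not above background in K562 and were 2.01-fold and 2.91-fold higher in the KBM5 combination. MT3 and MT4 were not above background on any of the 8 arrays. Without IM, MT2A was 2.06-fold higher with OR21 in K562 and 3.03-fold higher in KBM5, and the list had a median difference of 0.38 in K562 and 1.13 in KBM5. Across both pairs of KBM5 the OR21 effect on MT1B was a rise of 1.70 ± 0.25 (log2, SE, limma adjusted p = 0.0229), and none of the other 9 list members was called in either line. Of all genes, 0.486% were called as rises in KBM5. These genes are close copies of each other, so that RNA of one may bind probes of another, which was not tested.

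**Figure D2:**
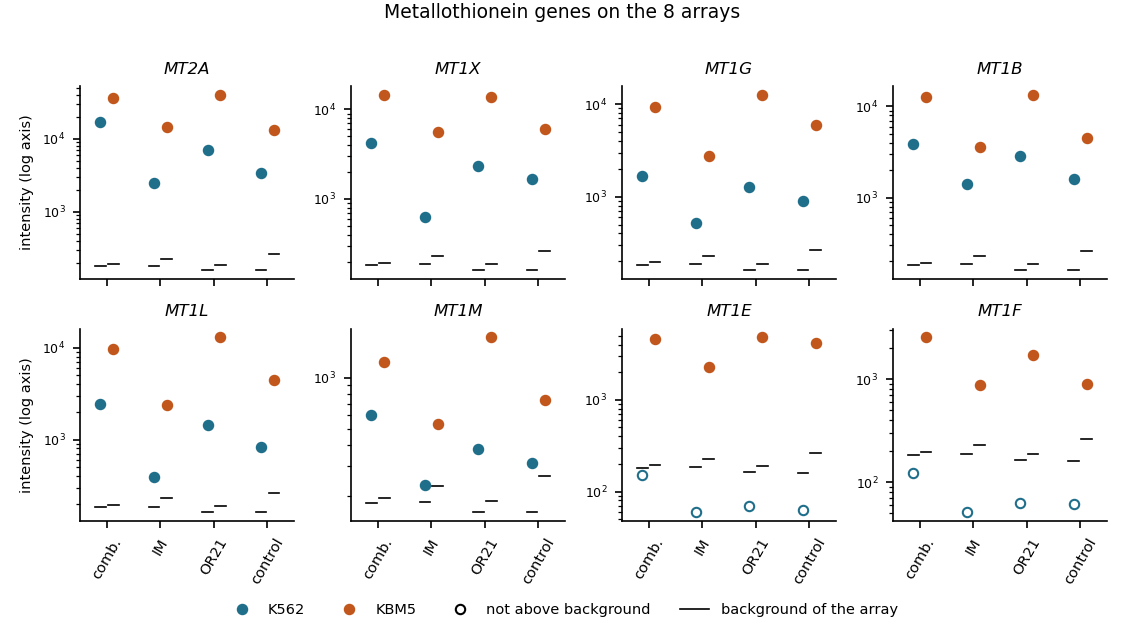
Intensity (log axis) of 8 metallothionein genes on the 8 arrays, with combination, IM, OR21 and control from left to right, K562 in blue and KBM5 in orange. Open points are not above background and short bars are the background of each array. In both lines the combination point lies above the IM point for every gene shown, and the OR21 point above the control point, with some of these points at background.

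The promoters of metallothionein genes are shown because these genes moved together and are known to be controlled through metal response elements, short motifs bound by the zinc-sensing factor MTF1. Promoter sequences are RefSeq's on GRCh38.p14, from 250 bases before to 50 bases after the start of the gene, and 14250 of the 17687 genes had one. TGCACNC and TGCGCNC were searched on both strands and are in capitals below. MT2A held 8 matches (chr16:56608334-56608633, plus strand), MT1X held 4 (chr16:56682220-56682519, plus strand) and MT1B held 3 (chr16:56651636-56651935, plus strand), and these 3 were chosen after their values were seen.
MT2A: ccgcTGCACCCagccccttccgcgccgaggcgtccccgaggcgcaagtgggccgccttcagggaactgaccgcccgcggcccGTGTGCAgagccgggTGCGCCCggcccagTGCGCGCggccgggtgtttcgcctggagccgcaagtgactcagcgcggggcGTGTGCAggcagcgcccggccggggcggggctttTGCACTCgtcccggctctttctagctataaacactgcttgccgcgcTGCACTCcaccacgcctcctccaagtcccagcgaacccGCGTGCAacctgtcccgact
MT1X: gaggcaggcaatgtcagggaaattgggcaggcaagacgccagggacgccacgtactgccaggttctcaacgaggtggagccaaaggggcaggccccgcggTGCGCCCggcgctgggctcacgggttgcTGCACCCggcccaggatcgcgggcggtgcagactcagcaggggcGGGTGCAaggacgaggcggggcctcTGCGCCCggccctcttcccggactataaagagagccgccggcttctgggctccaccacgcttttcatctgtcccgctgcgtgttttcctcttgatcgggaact
MT1B: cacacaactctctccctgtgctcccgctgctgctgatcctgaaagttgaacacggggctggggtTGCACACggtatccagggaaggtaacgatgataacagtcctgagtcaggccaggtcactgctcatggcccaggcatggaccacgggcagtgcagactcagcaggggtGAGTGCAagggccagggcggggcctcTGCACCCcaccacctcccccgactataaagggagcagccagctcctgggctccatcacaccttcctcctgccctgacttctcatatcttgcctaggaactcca
All 5 metallothionein promoters in the table held a match, against 35.1% of all promoters. The share was 40.2% over the promoters of genes above background in both pairs. Of the 10 promoters available for the 13 genes higher in both lines 50% held a match, but MT2A, MT1X and MT1B are among these 10. In the KBM5 pair, the share was 36.7% for genes at least 2-fold higher in the combination and 51.1% for genes at least 2-fold lower. MT4 held 3 matches and its RNA was not above background. A match is a run of letters and says nothing of binding in these cells.

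TKTL1, a transketolase-like protein of sugar metabolism, had the largest mean difference of the genes higher in both lines. It had 26951 in K562 combination cells and 3513 in KBM5 combination cells, against 524 in K562 IM cells and 1320 in KBM5 IM cells, so that the KBM5 difference (2.66-fold) was far below that of K562 (51.4-fold). ALDOC, an aldolase of glycolysis, had 6481 and 1050 in K562 and KBM5 combination cells against 2450 and 294 in K562 and KBM5 IM cells. Both ALDOC values with IM were far below its control values of 7730 in K562 and 8965 in KBM5. BNIP3, a mitochondrial protein of the BCL2 family that takes part in mitophagy, was 2.07-fold higher in K562 and 2.12-fold higher in KBM5. SLC39A8, a zinc importer, was 2.2-fold higher in K562 and at least 2.03-fold higher in KBM5. CDC20, an activator of the anaphase-promoting complex, was 2.02-fold higher in K562 and 3.29-fold higher in KBM5. None of these genes was called over both lines (limma adjusted p between 0.416 and 0.637).

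RAB13, a small GTPase of membrane traffic, had 19569 and 1307 in K562 and KBM5 combination cells against 8282 and 69.1 in K562 and KBM5 IM cells. The KBM5 IM value was not above background, so RAB13 was at least 5.72-fold higher in KBM5, and it was called in KBM5 over both pairs (limma adjusted p = 0.00284). EFEMP2, an extracellular matrix protein of the fibulin family, had 254 and 375 in K562 and KBM5 combination cells, against 107 and 87.5 in K562 and KBM5 IM cells. Neither IM array was above background for EFEMP2, so it was at least 1.37-fold higher in K562 and at least 1.64-fold higher in KBM5, and it was called in KBM5 over both pairs (1.85 ± 0.27 on the log2 scale, limma adjusted p = 0.0206). It was the only gene among the 10 most strongly higher in both lines that was at background on both IM arrays, which is why its promoter is shown (chr11:65872751-65873050, minus strand), with CpG sites in capitals.
EFEMP2: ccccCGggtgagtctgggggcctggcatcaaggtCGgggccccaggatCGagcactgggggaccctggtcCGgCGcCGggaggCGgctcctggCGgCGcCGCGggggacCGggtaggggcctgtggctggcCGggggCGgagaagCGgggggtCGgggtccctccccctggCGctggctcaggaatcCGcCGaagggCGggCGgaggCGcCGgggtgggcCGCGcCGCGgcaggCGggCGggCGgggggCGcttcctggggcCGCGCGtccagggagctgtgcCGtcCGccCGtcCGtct
This stretch holds 38 CpG sites, against a median of 22 over all promoters, and its observed over expected CpG ratio is 0.811 against a median of 0.770.

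Genes lower in both lines differed less. SYTL2, which helps secretory vesicles dock at the membrane, had 267 in K562 and 95.3 in KBM5 combination cells, against 536 in K562 and 232 in KBM5 IM cells, and the KBM5 combination value was not above background. The difference of SYTL2 was -1.15 ± 0.28 on the log2 scale (SE, limma adjusted p = 0.637). STING1, the adaptor that relays the sensing of cytosolic DNA, had 856 and 8059 in K562 and KBM5 combination cells, against 1811 and 12707 in K562 and KBM5 IM cells. It was 2.12-fold lower in K562 and 1.58-fold lower in KBM5, and lower with OR21 in both lines without IM as well. ZNF385A, a zinc finger protein, was 1.79-fold and 1.84-fold lower in K562 and KBM5, EME1, part of a nuclease that cuts recombination structures, 1.64-fold and 1.97-fold lower, and MMGT1, a membrane protein insertion subunit, 1.65-fold and 1.83-fold lower. The growth factor gene FGF9 was not above background on either combination array and was at least 1.64-fold lower in K562 and at least 1.36-fold lower in KBM5. The kinase gene AATK, the sorting protein gene PACS2, SBF2 and ASAP3 completed the 10 genes most strongly lower in both lines, none of them called (limma adjusted p = 0.637 for each of the 10).

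In K562, 73 genes were at least 2-fold higher and 23 at least 2-fold lower in the combination than in IM cells, among 6969 genes above background in that pair (1.05% and 0.33%). The 2-fold counts use the values as measured, whereas the fold printed for a gene at background on one array is a bound set by that array's background, and can be under 2. Because the pair has 1 array a side, the OR21 effect of the line was tested over both of its pairs, with and without IM. On that test 16 genes rose (0.0905% of 17687) and 0 fell, with 863 genes at an unadjusted p under 0.05 by limma. All 16 were higher in the pair with IM, and 12 of them at least 2-fold with an array above background. Because that pair helped to select these genes, their direction in it is no separate check. Of the 16, 10 were not above background on the K562 IM array, and 3 were not above it on any of the 4 K562 arrays. They included germ line genes, red cell genes and genes of other blood cells.

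H2BC14, a histone H2B gene, gave the largest difference. It had 5283 in K562 combination cells against 12.9 in K562 IM cells, and 20592 in K562 OR21 cells against 18.9 in K562 control cells. Both K562 arrays without OR21 were at background, so the gene was at least 28.5-fold higher with IM and at least 128-fold higher without it, and its OR21 effect was called (limma adjusted p = 1.58e-05). The fitted effect of 9.38 ± 0.48 (log2, SE) rests on values below background, as do the fitted effects of all genes at background on an array, and is no measured fold. In KBM5 H2BC14 was above background on the OR21 array alone, at 291, and its OR21 effect there was called as well, at 2.72 ± 0.48 (log2, SE, limma adjusted p = 0.043). GCNA, a germ cell nuclear protein encoded on chromosome X, had 857 in K562 combination cells against 48.7 in K562 IM cells, which was at least 4.62-fold higher, and it was not above background on any KBM5 array. ALOX12, the platelet-type 12-lipoxygenase, was at least 3.03-fold higher in K562 combination cells than in K562 IM cells, where it was at background, and had 381 in K562 OR21 cells. LAPTM5, a lysosomal membrane protein of blood cells, had 1373 in K562 combination cells against 141 in K562 IM cells, at least 7.4-fold higher. AKR1E2, an aldo-keto reductase, had 339 in K562 combination cells against 39.6 in K562 IM cells, at least 1.82-fold higher.

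TKTL1, GCNA, ALOX12, LAPTM5 and AKR1E2 were all called in K562 (limma adjusted p between 1.58e-05 and 0.000658). In KBM5 LAPTM5 was already at 72235 in combination cells and 72642 in IM cells, and ALOX12 and AKR1E2 were at background on all KBM5 arrays. The promoters of H2BC14 (chr6:27814772-27815071, plus strand) and GCNA (chrX:71578187-71578486, plus strand) are shown, with CpG sites in capitals, because both genes were at background without OR21 and above it with OR21 in K562. They were chosen after their values were seen.
H2BC14: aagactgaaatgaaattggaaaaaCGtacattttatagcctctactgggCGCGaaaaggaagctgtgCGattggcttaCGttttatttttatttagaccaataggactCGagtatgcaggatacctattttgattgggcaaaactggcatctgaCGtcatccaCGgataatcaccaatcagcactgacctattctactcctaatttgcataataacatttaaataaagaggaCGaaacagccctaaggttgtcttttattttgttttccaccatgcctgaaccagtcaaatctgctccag
GCNA: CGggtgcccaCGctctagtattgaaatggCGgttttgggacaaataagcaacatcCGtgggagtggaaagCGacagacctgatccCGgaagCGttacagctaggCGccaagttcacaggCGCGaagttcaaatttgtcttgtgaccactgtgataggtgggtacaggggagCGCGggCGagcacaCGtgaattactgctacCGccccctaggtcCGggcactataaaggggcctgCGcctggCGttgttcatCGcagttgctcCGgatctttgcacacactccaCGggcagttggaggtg
H2BC14 holds 9 CpG sites and GCNA holds 21, against a median of 22 over all promoters. Over promoters of genes at background on the K562 IM array the median is 17. Their observed over expected ratios are 0.778 and 0.873, against medians of 0.770 over all promoters and 0.643 over those of genes at background on the K562 IM array.

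**Figure D3:**
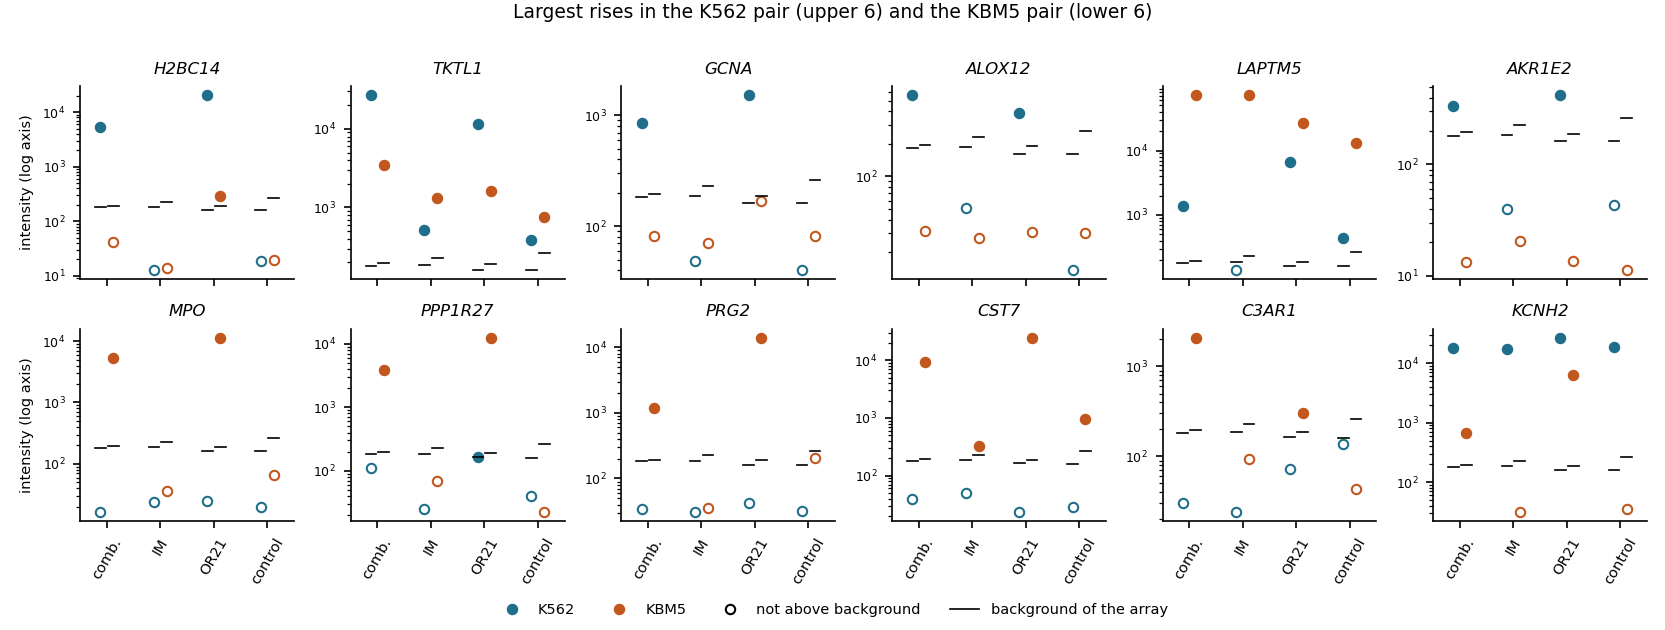
Intensity (log axis) of the 6 genes most strongly higher in the K562 pair (upper row) and in the KBM5 pair (lower row), among those higher in both pairs of the line, on the 8 arrays, with combination, IM, OR21 and control from left to right, K562 in blue and KBM5 in orange. Open points are not above background and short bars are the background of each array. H2BC14 in K562 and MPO in KBM5 lie at background on both arrays without OR21 and above 1000 on both arrays with it.

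Red cell genes were among the 16 genes called in K562. AHSP, the chaperone of free alpha globin, had 828 in K562 combination cells against 199 in K562 IM cells (4.15-fold), with an OR21 effect of 2.08 ± 0.23 (log2, limma adjusted p = 0.0065). Without IM, AHSP was not above background in K562 OR21 or K562 control cells, so that this effect and its call rest in part on values below background. RHCE, which carries the C and E antigens of the Rh blood group, had 11431 in K562 combination cells against 3691 in K562 IM cells (3.1-fold, limma adjusted p = 0.0253), and the water channel gene AQP1 had 9494 against 2656 (3.58-fold, limma adjusted p = 0.0253). CD37, a tetraspanin of blood cells, was 2.76-fold higher in the K562 combination. Members of the erythroid lists that were not called included SLC4A1, the anion exchanger of the red cell membrane, with 3654 in K562 combination cells against 689 in K562 IM cells, and EPB42, a membrane skeleton protein, with 5624 against 2456. HBD, the delta globin gene, was lower, with 901 in K562 combination cells against 3443 in K562 IM cells, 3.82-fold lower.

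Of 23 erythroid regulator and membrane genes 3 were at least 2-fold higher and 0 at least 2-fold lower in the K562 combination, with a median difference of 0.20, against -0.00 over all genes. Of all genes above background in the K562 pair, 1.05% were at least 2-fold higher and 0.33% at least 2-fold lower. Of 19 genes of heme and iron 0 passed 2-fold in the K562 pair, with a median of 0.25. Of 9 globin genes 1 was at least 2-fold higher (AHSP, which the list holds) and 1 at least 2-fold lower (HBD), and HBA2 differed 1.05-fold between K562 combination and IM cells. Without IM, HBA2 had 311133 in K562 OR21 cells and 89320 in K562 control cells. The other called genes in K562 were TDRD12, TUBA3D, DPEP3 and H3-4, genes of testis and germ cells whose K562 combination values were not above background, and DUSP21 and ACSM1, which were 5.15-fold and at least 1.73-fold higher in the K562 combination. H2BC14 and TUBA3D have close copies in the genome, and binding of RNA from a copy was not tested.

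No gene was called as lower in K562. Those most strongly lower that went the same way without IM were ZFPM2, a cofactor of GATA factors, with 3357 in K562 combination cells against 9243 in K562 IM cells, and POTEI, a member of the POTE ankyrin family, with 199 against 527. LAIR2, a secreted collagen receptor, had 277 in K562 combination cells against 643 in K562 IM cells. SLC2A3, a glucose transporter with the near copy SLC2A14, was not above background in K562 combination cells and had 432 in K562 IM cells, at least 2.37-fold lower, while without IM it had 12896 in K562 OR21 cells and 29006 in K562 control cells. CIBAR1 and EYA3 were the other 2, each at background in the combination. The limma adjusted p of these 6 genes for the K562 effect lay between 0.656 and 0.999.

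KBM5 differed more than K562. Here 428 genes were at least 2-fold higher and 107 at least 2-fold lower in the combination than in IM cells, among 6787 genes above background in that pair (6.31% and 1.58%), and after quantile normalization 342 were higher and 176 lower, so that the share of higher genes was 80% as deposited and 66% after it. The KBM5 IM array had the higher background and the fewer genes above it of that pair, and the part of this in the count was not tested. Over both pairs of KBM5 limma called 86 rises (0.486% of 17687) and 10 falls (0.0565%), with 2220 genes at an unadjusted p under 0.05. All 86 were higher and all 10 lower in the pair with IM, and 66 of the rises and 6 of the falls passed 2-fold there. That pair is part of the data behind the calls, so the shared direction is largely built in and is no separate check. Of the 86 rises 56 were not above background on the KBM5 IM array, and 12 were not above it on any of the 4 KBM5 arrays, as were 4 of the 10 falls.

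Genes of granulocyte granules led the KBM5 rises. MPO, the myeloperoxidase of neutrophil granules, had 5282 in KBM5 combination cells against 35.9 in KBM5 IM cells, and 11442 in KBM5 OR21 cells against 65.8 in KBM5 control cells. The arrays without OR21 were at background, so MPO was at least 23.1-fold higher with IM and at least 43.5-fold higher without it (limma adjusted p = 1.15e-06, with a fitted effect of 7.32 ± 0.27 on the log2 scale that again rests on values below background). PRG2, the major basic protein of eosinophils, had 1190 in KBM5 combination cells against 35.8 in KBM5 IM cells, at least 5.2-fold higher (limma adjusted p = 9.1e-06). CST7, a cystatin of granules, had 9443 in KBM5 combination cells against 322 in KBM5 IM cells, 29.3-fold higher (limma adjusted p = 8.03e-06). In K562 none of these 3 genes was above background on any array.

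Further genes of granules or of granulocytic cells among the 86 rises, named here after their values were seen, were CTSG, SLPI, MS4A3, RNASE2, CEBPE and EPX. CTSG, the cathepsin G protease, had 28746 in KBM5 combination cells against 2837 in KBM5 IM cells (10.1-fold, limma adjusted p = 0.0247). SLPI, an inhibitor of such proteases, had 1134 in KBM5 combination cells and was at background in KBM5 IM cells, at least 4.96-fold higher. RNASE2, an eosinophil ribonuclease, had 37438 in KBM5 combination cells against 15676 in KBM5 IM cells. CEBPE, a transcription factor of granule formation, and EPX, the eosinophil peroxidase, were called although neither was above background in the KBM5 combination. The granule proteases PRTN3 and AZU1 were not called, with 27502 and 82396 in KBM5 combination cells against 21917 and 49482 in KBM5 IM cells.

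The following genes of myeloid cells were also among the 86 rises and, apart from C3AR1 and FCGR1A, are named after their values were seen, while other genes of monocytes were lower, as given further on. C3AR1, the receptor of complement fragment C3a, had 2096 in KBM5 combination cells and was at background in KBM5 IM cells, at least 9.17-fold higher (limma adjusted p = 0.00508). FCGR1A, the high-affinity receptor of IgG, had 9135 in KBM5 combination cells against 1864 in KBM5 IM cells (4.9-fold, limma adjusted p = 0.0247). CD86, a costimulatory ligand, had 1056 in KBM5 combination cells and was at background in KBM5 IM cells, at least 4.62-fold higher. TYROBP, the signalling adaptor of many myeloid receptors, had 106081 in KBM5 combination cells against 48514 in KBM5 IM cells. MNDA, a nuclear antigen of myeloid cells, was 3.07-fold higher, CLEC12A, an inhibitory myeloid lectin, 3.07-fold higher, and ANPEP, the aminopeptidase CD13, 2.23-fold higher. GATA2, a transcription factor of blood progenitors, mast cells and eosinophils, had 464 in KBM5 combination cells and was at background in KBM5 IM cells, at least 2.03-fold higher (limma adjusted p = 0.00284).

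Over the whole list of 28 granulocytic and monocytic genes, 19 were above background in the KBM5 pair, of which 5 were at least 2-fold higher and 2 at least 2-fold lower in the combination, where 6.31% and 1.58% of all genes were. Of the 28, 5 were called as rises and 1 as a fall over both pairs, where 0.486% and 0.0565% of all genes were called, and the median difference was 0.19, against -0.03 over all genes. The 2 that were lower were IRF8 and CSF1R. Of 16 mast cell and basophil genes 3 were called as rises in KBM5, against the same 0.486% of all genes, 2 of them, PRG2 and GATA2, above background in the combination. Fewer cells of a type and less RNA per cell cannot be told apart in these cultures.

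KCNH2, a potassium channel gene, had 675 in KBM5 combination cells and was at background in KBM5 IM cells, at least 2.95-fold higher (limma adjusted p = 0.00153), while in K562 it was bright on every array, with 18317 in combination cells and 17404 in IM cells. PPP1R27, a regulatory subunit of protein phosphatase 1, had 3800 in KBM5 combination cells against 68.2 in KBM5 IM cells, and 12564 in KBM5 OR21 cells against 22.1 in KBM5 control cells, both arrays without OR21 being at background. It was at least 16.6-fold higher with IM and at least 47.7-fold higher without it (limma adjusted p = 0.000403). Its promoter (chr17:81835001-81835300, minus strand) is shown with CpG sites in capitals, as that of the 1 with the largest bound among the 6 KBM5 genes of the plot by line that had a promoter in the table, a choice made after its values were seen.
PPP1R27: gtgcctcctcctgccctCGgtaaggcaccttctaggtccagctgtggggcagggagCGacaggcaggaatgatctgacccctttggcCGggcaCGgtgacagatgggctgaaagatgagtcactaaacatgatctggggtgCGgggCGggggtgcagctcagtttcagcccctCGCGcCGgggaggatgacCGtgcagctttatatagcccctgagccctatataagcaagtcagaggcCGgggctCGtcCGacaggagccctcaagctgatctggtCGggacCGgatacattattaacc
It holds 15 CpG sites with an observed over expected ratio of 0.554. MPO, PRG2 and CST7 had no entry in the promoter table.

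The falls called in KBM5 were led by CCR2, the receptor of the chemokine CCL2 on monocytes, with 2247 in KBM5 combination cells against 17586 in KBM5 IM cells (7.83-fold lower, OR21 effect -2.60 ± 0.30 on the log2 scale, limma adjusted p = 0.00644). IRF8, a transcription factor of monocytes and dendritic cells, had 9677 in KBM5 combination cells against 29304 in KBM5 IM cells (3.03-fold lower, limma adjusted p = 0.0265). AFF3, a nuclear protein of the AF4 family, had 1134 against 3289, TIFAB, an inhibitor of TRAF6 signalling, 727 against 2751, and the calcium-dependent kinase gene CAMK2D 546 against 1792, each in KBM5 combination against KBM5 IM cells. SERPINB8 was 2.4-fold lower. The other 4 called falls, MANEAL, TP53TG3B, OR1L6 and TAT, were at background on the KBM5 arrays. VDR, the vitamin D receptor, with 1988 in KBM5 combination cells against 8170 in KBM5 IM cells, MS4A6A with 1714 against 5921, and SFXN2, at background against 321, were lower without a call (limma adjusted p = 0.136, 0.0895 and 0.365).

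The difference between the lines was itself tested, as the OR21 effect in KBM5 minus that in K562. It was called for 8 genes higher in KBM5 (0.0452% of 17687) and 10 genes higher in K562 (0.0565%), with 1352 at an unadjusted p under 0.05 by limma. The 8 were MPO, CST7, PRG2, KCNH2, PPP1R27, C3AR1, GATA2 and CD86. The 10 were H2BC14, TKTL1, GCNA, ALOX12, AKR1E2, LAPTM5, AHSP, AQP1, H3-4 and TUBA3D. Metallothioneins gave no call on this test, with MT2A at -0.44 ± 0.50 (log2, KBM5 minus K562, limma adjusted p = 0.893). That p does not show that the lines responded alike.

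Genes of cell division were higher in the KBM5 combination than in KBM5 IM cells, though none was called. All 21 G2/M genes above background in that pair were higher, 7 of them at least 2-fold. All 21 were above background on the KBM5 combination array, but only 17 on the KBM5 IM array. The rest entered the count only through the array where they were higher, so their direction largely follows from the filter. The median of the 26 measured genes was 0.86, against -0.03 over all genes. Of all 6787 genes above background in that pair, 3973 were higher. Of those 6787, 6.31% were at least 2-fold higher. HMMR, a spindle protein, had 232 in KBM5 combination cells while KBM5 IM cells were at background. That background was 229, so the bound for HMMR shows almost no rise. KIF20A, a mitotic kinesin, was at background on both arrays. The next 3 genes are named after their values were seen. MKI67, a marker of cycling cells, had 1080 in KBM5 combination cells against 522 in KBM5 IM cells. TTK, a checkpoint kinase of mitosis, had 967 against 408, NUSAP1, a spindle protein, had 3744 against 1760. DLGAP5 had 522 in KBM5 combination cells while KBM5 IM cells were at background. Levels without IM were higher, where KBM5 OR21 and control cells had 3134 and 2865 of MKI67 and 4771 and 4856 of TTK. In K562, 15 of 26 were higher, where 3875 of 6969 genes above background were. CDC20 alone was at least 2-fold higher, where 1.05% of those genes were, and the median of the list was 0.02.

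Replication genes gave a mixed picture in KBM5. Of 28 genes of G1/S and DNA replication, 11 of the 13 above background in the KBM5 pair were higher, 2 at least 2-fold (PCNA, the sliding clamp, and RRM2, a ribonucleotide reductase subunit), and RFC3, a clamp loader subunit, was 2.21-fold lower. On the KBM5 combination array 13 of the 28 were above background, and on the KBM5 IM array 11. Of all genes above background in that pair, 6.31% were at least 2-fold higher and 1.58% at least 2-fold lower. Of 29 replication-dependent histone genes 24 were above background in the KBM5 pair, and 16 of these were higher in the combination. The KBM5 combination array had 24 of them above background and the KBM5 IM array 22. At least 2-fold higher were 5, against 6.31% of all genes. They included H1-2, with 1542 in KBM5 combination cells against 235 in KBM5 IM cells, and H2BC8, with 1187 against 334. Without IM the median difference of the list in KBM5 was -0.37. In K562 H1-2 had 11264 in combination cells and 11536 in IM cells. H1-5 was 2.73-fold higher in the K562 combination, with 621 against 227. Most of the list went the other way in K562, where 9 of the 26 genes above background were higher and the median was -0.13. At least 2-fold higher in the K562 pair were 2, where 1.05% of all genes were, and 0 were at least 2-fold lower.

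Lists of genes often followed after demethylation had most of their members at background, and a member can pass 2-fold only above it. Their counts are to be read against the 1.05% of genes in K562 and 6.31% in KBM5 that were at least 2-fold higher. Of 36 cancer-testis antigen genes, silent in most adult tissues, 15 were above background in the K562 pair and 3 in the KBM5 pair, and 1 was at least 2-fold higher in K562 (CT45A1, 1573 in K562 combination cells against 762 in K562 IM cells) and 0 in KBM5. Of 34 germ line and meiosis genes, 4 above background in each pair, 0 passed 2-fold in K562, where TDRD12 and DPEP3 were called at values below background, and 1 in KBM5, CCNA1, a germ line cyclin, at least 1.82-fold higher by its bound and called over both pairs (limma adjusted p = 0.043). Of 29 genes reported as silenced by promoter methylation in leukaemia 0 passed 2-fold in either line, and 25 of them were at background in the K562 pair and 25 in the KBM5 pair. Of 38 interferon-stimulated genes 0 of the 9 above background passed 2-fold in K562 and 2 of the 16 above background in KBM5. Those 2 were IFITM3, a restriction factor of virus entry, with 8272 in KBM5 combination cells against 3333 in KBM5 IM cells and called over both KBM5 pairs (limma adjusted p = 0.0247), and IFI6, with 450 while KBM5 IM cells were at background. Of 21 antigen presentation genes 2 of the 11 above background passed 2-fold in KBM5, HLA-C, with 3533 in KBM5 combination cells against 1277 in KBM5 IM cells, and PSMB8, an immunoproteasome subunit, with 853 against 410.

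Of 16 genes that write, read or erase DNA methylation, 14 were above background in the K562 pair and 12 in the KBM5 pair, and 0 passed 2-fold in either. With so few members, a count of 0 is near the share of all genes that were at least 2-fold higher or lower (1.05% and 0.33% in K562, 6.31% and 1.58% in KBM5). DNMT1, the maintenance methyltransferase, named after its values were seen, had 727 in K562 combination cells and 409 in KBM5 combination cells, against 761 in K562 IM cells and 400 in KBM5 IM cells. UHRF1, which brings DNMT1 to replicated DNA, was 1.11-fold higher in K562 and 1.89-fold higher in KBM5. Among 19 genes of cytidine analog handling, SLC29A1, the equilibrative nucleoside transporter, had 885 in KBM5 combination cells against 291 in KBM5 IM cells. Its KBM5 levels without IM were 4381 in OR21 cells and 3720 in control cells.

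Of 19 BCL2 family genes 3 of the 11 above background were at least 2-fold higher in KBM5, against 6.31% of all genes, BNIP3 as given above and a gene of each opposing class. PMAIP1, the BH3-only protein NOXA, had 907 in KBM5 combination cells and was at background in KBM5 IM cells, at least 3.96-fold higher, and BCL2, which opposes such proteins, had 1447 in KBM5 combination cells against 648 in KBM5 IM cells. Neither was called over both KBM5 pairs (limma adjusted p = 0.305 and 0.954). Of 26 CDK inhibitor and p53 target genes, PMAIP1 alone of the 12 above background in the KBM5 pair passed 2-fold there. Of 21 NF-kB and cytokine genes 3 of the 9 above background were at least 2-fold higher in KBM5, against the same share of all genes, CXCL8, a neutrophil chemokine, with 1193 in KBM5 combination cells against 260 in KBM5 IM cells, CCL5, with 4419 against 1576, and IL18, at least 1.77-fold higher by its bound and called over both KBM5 pairs (limma adjusted p = 0.0247). Of 20 megakaryocytic genes 2 were called as rises in KBM5, where 0.486% of all genes were called, and of them CD9 was at background on every KBM5 array. THBS1, an adhesive glycoprotein of platelets, had 1380 in KBM5 combination cells and was at background in KBM5 IM cells, at least 6.03-fold higher (limma adjusted p = 0.049).

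**Figure D4:**
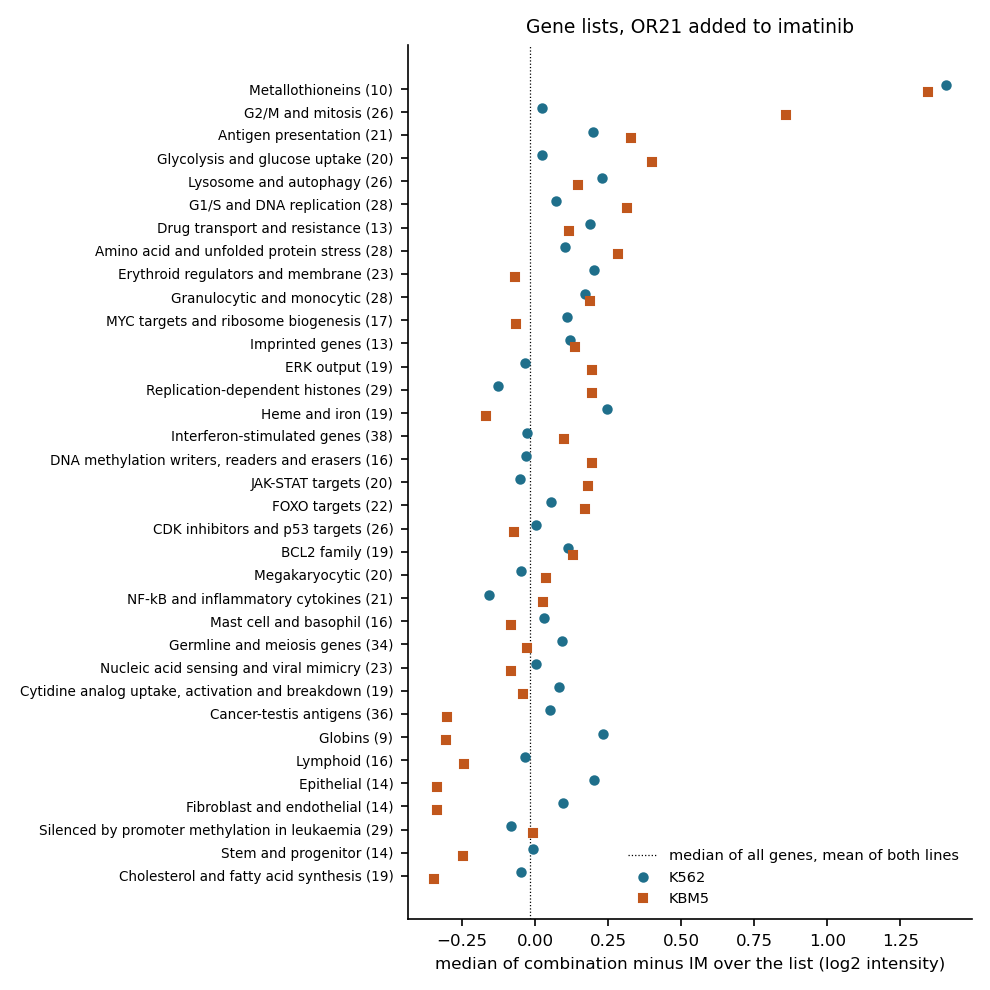
Median log2 intensity difference combination minus IM over each of 35 gene lists, with the number of measured genes in parentheses, K562 as blue circles and KBM5 as orange squares. The dotted line is the median of all genes over both lines (-0.02). Metallothioneins have the highest medians in both lines, and G2/M genes have 0.86 in KBM5 and 0.02 in K562.

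The pair without IM in each line gave a repeat of the contrast on other arrays. There 115 genes were at least 2-fold higher and 45 at least 2-fold lower with OR21 in K562 (1.58% and 0.617% of 7299), 233 higher and 79 lower in KBM5 (3.46% and 1.17% of 6725), and 8 higher and 2 lower in both lines (0.132% and 0.033% of 6057). In K562, 58 genes at least 2-fold higher with IM were above background in both pairs, and 48 of them (82.8%) were also higher with OR21 in the absence of IM, against 48.7% of all genes above background in both pairs. At least 2-fold in both pairs were 22 of them, 37.9% of those with IM and 24.7% of the 89 without IM, where 1.33% of genes passed 2-fold. In KBM5, 265 of 351 (75.5%) went the same way, against 52.7% of all, and 80 passed 2-fold in both pairs, 22.8% of those with IM and 40% of the 200 without IM, where 3.23% passed. Genes at least 2-fold lower with IM were lower without it in 12 of 20 cases in K562 (60%, against 51.3% of all) and in 56 of 78 in KBM5 (71.8%, against 47.3% of all), of which 2 in K562 and 14 in KBM5 passed 2-fold in both pairs, where 0.508% and 1.06% of genes were at least 2-fold lower without IM. Across genes the differences with and without IM had Pearson r = 0.33 and Spearman rho = 0.12 in K562 (6688 genes) and Pearson r = 0.44 and Spearman rho = 0.33 in KBM5 (6198 genes).

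**Figure D5:**
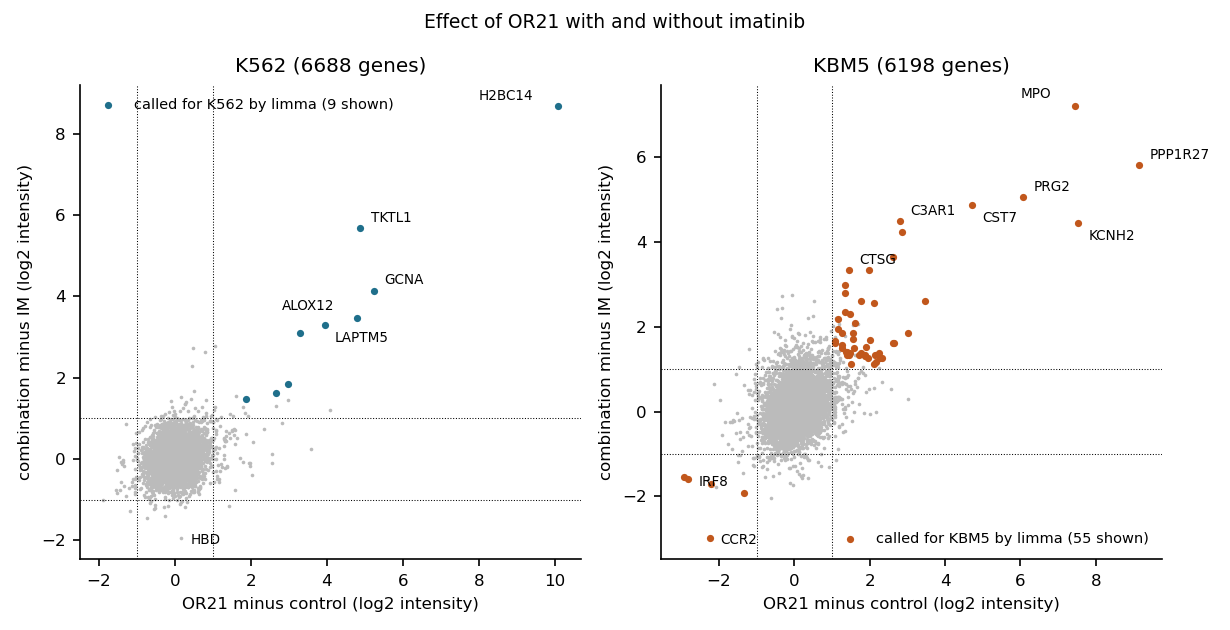
Each point is a gene above background in both pairs of a line, with the log2 intensity difference OR21 minus control on the x axis and combination minus IM on the y axis, for K562 (6688 genes, left) and KBM5 (6198 genes, right). Coloured points are genes called for the OR21 effect of that line and dotted lines mark 2-fold. H2BC14 and TKTL1 in K562 and MPO, PPP1R27 and CST7 in KBM5 lie far out on both axes, and CCR2 lies low on both.

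Whether IM changed what OR21 did was tested as the difference of the effects with and without IM, common to both lines. No gene was called (0 of 17687, 0%, in either direction by limma, with 683 at an unadjusted p under 0.05 and a smallest adjusted p of 0.988). OR21 against control over both lines likewise gave 0 calls (0%), with 886 at an unadjusted p under 0.05. The largest positive differences were those of BCL2, NMNAT1, an enzyme of NAD synthesis, and HK2, a hexokinase. BCL2 in KBM5 was 2.23-fold higher with OR21 in the presence of IM, as above, and had 1244 in KBM5 OR21 cells against 2442 in KBM5 control cells, 1.96-fold lower. In K562 BCL2 was at background on every array, so the K562 part of its difference rests on values below background. HK2 had 313 in KBM5 combination cells while KBM5 IM cells were at background, and 464 in KBM5 OR21 cells against 1167 in KBM5 control cells. HEMGN, a nuclear protein of erythroid cells, had one of the largest negative differences, with 14229 in K562 combination cells against 15310 in K562 IM cells, and 4222 in K562 OR21 cells against 1098 in K562 control cells. ALDOC had a difference of 1.69 ± 0.38 (log2, SE, limma adjusted p = 0.988), and without IM its KBM5 values were not higher with OR21 (6599 in KBM5 OR21 cells against 8965 in KBM5 control cells).

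Genes at background with IM and at least 2-fold higher and above background in the combination numbered 31 of 11025 in K562 (0.281%) and 205 of 11596 in KBM5 (1.77%). In the pair without IM, 51 of 10626 genes did so in K562 (0.48%) and 105 of 11813 in KBM5 (0.889%). Those that did so in both pairs were 6 in K562 and 24 in KBM5. The opposite, above background with IM and at background and at least 2-fold lower in the combination, held for 12 genes in K562 and 43 in KBM5. The K562 and KBM5 IM arrays had 6662 and 6091 genes above background. That background was 229 on the KBM5 IM array and 194 on the KBM5 combination array, and its part in these counts was not tested. The promoters of the 24 K562 genes among the 31 that had one held a median of 17.5 CpG sites, against 17 over the promoters of all genes at background on the K562 IM array and 26 over those of all genes above background in the K562 pair. In KBM5 the median was 27 over 170 promoters, against 18 over those of all genes at background on the KBM5 IM array and 26 over those of all genes above background in the KBM5 pair. For genes that did so with and without IM, the medians were 20 over 5 promoters in K562 and 25 over 17 promoters in KBM5. Over genes called as rises, the median was 16.5 in K562 (14 promoters) and 19 in KBM5 (64 promoters), against 22 over all genes. Most of these called genes were at background on the IM array of their line. Over all genes at background there, the medians were 17 in K562 and 18 in KBM5, as given above. These are descriptions of sequence, and DNA methylation was not measured on these arrays.

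The calls of the single lines depend on how dim values are treated. With log2(value + 16) in place of log2(value), 5 of the 16 K562 calls were kept (H2BC14, TKTL1, GCNA, ALOX12 and AKR1E2) and 3 of the 96 KBM5 calls (MPO, CST7 and PRG2). Leaving out 1 array gave 9 to 31 calls in K562 and 54 to 157 in KBM5.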

How the data were processed

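RNA of 8 cultures was measured on 1-colour arrays. The values are linear intensities of 24351 probe sets as the authors deposited them, and the labels and file headers name neither the software nor the normalization. Array medians lay between 77.8 and 83.3. Of 21448 transcript clusters, 17709 had 1 gene symbol and 3739 were unnamed. The brightest of a gene's probe sets was kept (17687 genes, 20 with more than 1), and log2 intensities were fitted with limma 3.58.1 in R 4.3.3, with Benjamini-Hochberg adjustment. Tables were handled with pandas 2.3.3 and numpy 2.4.6.

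The label's replicate number is the cell line, so the arrays are paired by line, and the line entered each fit as a block. The fit over both lines held the line, an IM term for each line, a common OR21 term and its interaction with IM (2 residual degrees of freedom). The fit for single lines held an OR21 and an IM term for each line and no interaction. Tested on simulated data of 17687 genes for combination against IM over both lines, the fit called 1.25% of genes changed by 1, 38.8% of those changed by 2 and 75% of those changed by 4 on the log2 scale. Each changed gene was given the same OR21 effect in both lines, with and without IM, and normal noise. The measured differences of the lines were only weakly related, so these shares need not hold for the measured genes.

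Named genes were the 10 most strongly higher and lower in both lines by the smaller difference, 6 each per line, 3 each for the interaction, and up to 4 per gene list. The members and the lists were chosen with earlier results of these data known. Alternatives were quantile normalization, brighter genes, an intensity trend with robust moderation, the mean of probe sets, log2(value + 16), other folds and background percentiles, no block, and leaving out each array.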

Additional observations from a re-analysis of the deposited data

Results flagged for a closer look

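The OR21 effect differed between the lines, by limma's test of the difference at a Benjamini-Hochberg adjusted p under 0.05, for 12 of the genes named per line. As KBM5 minus K562 on the log2 scale, the difference was 7.45 for MPO, 5.70 for KCNH2, 5.38 for PPP1R27, 5.27 for PRG2, 5.10 for CST7 and 3.94 for C3AR1. It was -6.67 for H2BC14, -4.06 for GCNA, -4.03 for TKTL1, -4.01 for ALOX12, -3.36 for AKR1E2 and -3.09 for LAPTM5. These are fitted differences that use values below background as deposited, and their size is no measured fold. MPO, PRG2 and CST7 were at background on every K562 array, GCNA, ALOX12 and AKR1E2 on every KBM5 array, and each of these 12 genes except TKTL1 on at least 1 array. LAPTM5 was bright on every KBM5 array and KCNH2 on every K562 array.

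Among transcript clusters with no gene name, which no comparison above uses, 1 of 883 above background in both pairs was at least 2-fold higher in the combination than with IM in both lines, and 0 were at least 2-fold lower.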

How the results depend on the processing

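Over both lines, combination against IM gave 0 calls under most settings, 2 with an intensity trend and robust moderation (MT1G and MT1L), and 0 to 1 on leaving out 1 array, with 1 without the KBM5 IM or the KBM5 combination array. With no replicate block, the pairing by line being dropped, it gave 0 calls and 229 genes at an unadjusted p under 0.05 by limma. The K562 calls numbered 4 with brighter genes only (fewer genes tested), 27 with the trend, 5 with log2(value + 16), and 9 to 31 on leaving out 1 array, with 9 without the K562 control or OR21 array and 31 without any KBM5 array. The KBM5 calls numbered 62, 243 and 3 under the same settings, and 54 to 157 on leaving out 1 array, with 54 without any K562 array and 157 without the KBM5 control or OR21 array. The calls for the line difference numbered 6, 43 and 2, and 6 to 52, with 6 without the K562 control or OR21 array, 52 without the KBM5 control or OR21 array and 34 without the KBM5 IM or combination array.

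For 1.5-fold, 3-fold and a background at the 99th percentile, the counts were 76, 2 and 7 higher and 22, 0 and 0 lower in both lines, 436, 22 and 39 higher and 284, 1 and 4 lower in K562, and 1228, 98 and 108 higher and 478, 8 and 48 lower in KBM5. With log2(value + 16) 0 genes were lower in both lines, and quantile normalization gave 176 lower in KBM5. On leaving out 1 array, the interaction of H2BC14 ranged between -5.43 and 1.69 and that of KCNH2 between -5.26 and 1.75 (log2). The interaction of H2BC14 turned to 1.24 without the K562 control or OR21 array and to 1.69 without the KBM5 IM or combination array. That of KCNH2 turned to 0.43 without the K562 IM or combination array and to 1.75 without the KBM5 control or OR21 array. Of 719 alternative values for the 50 results on named genes, 685 kept direction and side of the threshold. The 719 values are not separate checks. Leaving out either array of a pair gave the same calls, and leaving out an array of 1 line does not move the other line's own effect. The mean of probe sets can differ only for the 20 genes with more than 1. Except where fewer genes were tested or arrays left out, the cause of a changed value was not tested. Genes near background on these arrays have only bounds.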
